A study of Mus musculus with 81 samples.

Results

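This account covers the subunits of mitochondrial complex I in mouse heart. A list of 36 genes was looked up among 22180 measured genes, and 33 were measured by a probe set that carries their symbol alone. The gene's probe set with the highest mean over 81 arrays was taken. The other 3, Ndufb2, Ndufb4 and Ndufs6, were covered by probe sets that also carry another gene's symbol (Adck2, Ndufb4b with Ndufb4c, and Ndufs6b) and were not analysed here. Among the 33 measured genes, 6 encode core subunits, 26 encode accessory subunits, and 1, Ndufa4, carries a complex I name but is now placed with complex IV and is described apart. The core subunits that mitochondrial DNA encodes were not analysed here.

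RNA of whole hearts came from fasted 29-week-old male mice of the BXD family, recombinant inbred strains bred from C57BL/6J and DBA/2J, and from both parents. Each array held the pooled RNA of about 5 animals of 1 strain on 1 diet, labelled chow or high fat, with no other treatment or engineered allele named for any group. Chow arrays numbered 42 and high fat arrays 39, and 39 strains (37 BXD strains and both parents) had both diets. With 1 array for each strain and diet, strains served as replicates, animals within a pool cannot be seen, and precision is set by how many arrays there are. The protocol text of every sample speaks of chow, including those labelled high fat, so the diet was taken from the treatment label and the sample title. Values are rescaled expression units on a log-like scale whose base is not known, so differences are given in units and never as folds. In a piece of whole heart, fewer cells of a type and less RNA per cell cannot be told apart.

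Complex I is the entry point of the respiratory chain. It takes electrons from NADH at the tip of an arm that reaches into the mitochondrial matrix (the N module), passes them along iron-sulphur clusters to ubiquinone (the Q module) and pumps protons through an arm in the inner membrane, whose proximal part lies next to the matrix arm and whose distal part lies away from it. Core subunits carry out the chemistry and have bacterial counterparts, while accessory subunits surround them and serve in assembly, stability and regulation. Heart muscle is rich in mitochondria and depends on this chain for the ATP of contraction.

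The tissue label was checked against markers. All 11 cardiomyocyte markers were measured, with a mean per array between 14.8 and 15.2 units on chow and between 14.7 and 15.2 on high fat. The mean of 8 atrial markers ranged from 9.47 (BXD65) to 13.46 (BXD87) on chow and from 9.39 (BXD65) to 13.60 (BXD63) on high fat, while 1 of these markers passed the test between the diets. Markers that moved with complex I are given beside its results. A set of 92 probe sets for ERCC sequences, which are external RNA controls, was also compared between the diets. Of these 37 passed the test (40.2%, 21 higher and 16 lower), and 95% of them differed by at most 0.247 units. Their mean level was 5.96 units, while the mean of 23 background probe sets ranged from 6.69 to 7.07 on chow and 6.76 to 7.13 on high fat. The sources used here do not say whether control RNA had been added.

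Promoter sequences are shown for the members on which the results below turn, taken from RefSeq (GRCm38.p6) as the 250 bases upstream of the first start listed for the gene, 5′ to 3′ on the gene's strand. Matches to short motifs of factors known for nuclear genes of the respiratory chain, or of general promoter elements, are in capitals. Ndufs5 and Ndufa7 had the largest rise and fall between the diets.
Ndufs5: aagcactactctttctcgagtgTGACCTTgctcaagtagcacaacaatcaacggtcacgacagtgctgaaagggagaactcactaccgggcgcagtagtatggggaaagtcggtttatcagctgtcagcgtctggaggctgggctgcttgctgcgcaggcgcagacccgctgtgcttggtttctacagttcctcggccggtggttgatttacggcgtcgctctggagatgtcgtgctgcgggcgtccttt
Ndufa7: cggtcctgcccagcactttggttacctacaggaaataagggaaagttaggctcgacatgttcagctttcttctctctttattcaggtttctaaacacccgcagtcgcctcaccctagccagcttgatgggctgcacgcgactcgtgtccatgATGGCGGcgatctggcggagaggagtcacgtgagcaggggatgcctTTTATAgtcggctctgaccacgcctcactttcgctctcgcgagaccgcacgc
Ndufs5 lies on the minus strand (chr4:123718187-123718436), and its window holds 1 ERR motif (AAGGTCA, bound by estrogen-related receptors), read as TGACCTT, which begins 228 bases before the start. In the Ndufa7 window (chr17:33824322-33824571, plus strand) a YY1 motif (ATGGCGG) begins 98 bases and a TATA motif (TATAAA, read as TTTATA) 52 bases before the start. Ndufa4 and Ndufa6 were the pair of members with the highest mean of r on chow and r on high fat among strains.
Ndufa4: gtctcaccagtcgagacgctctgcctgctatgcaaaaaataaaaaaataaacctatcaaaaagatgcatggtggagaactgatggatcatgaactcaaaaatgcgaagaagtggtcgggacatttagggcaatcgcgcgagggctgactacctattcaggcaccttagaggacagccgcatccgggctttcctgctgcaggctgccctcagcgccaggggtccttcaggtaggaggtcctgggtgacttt
Ndufa6: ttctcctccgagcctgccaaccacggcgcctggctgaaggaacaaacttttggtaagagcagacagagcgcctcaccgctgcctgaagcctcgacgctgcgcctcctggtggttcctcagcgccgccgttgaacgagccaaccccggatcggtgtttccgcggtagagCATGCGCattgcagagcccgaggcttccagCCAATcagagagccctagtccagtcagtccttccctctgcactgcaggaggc
Both lie on minus strands (chr6:11907451-11907700 and chr15:82354292-82354541). For Ndufa6 an NRF1 motif (GCGCATG, read as CATGCGC) begins 82 bases and a CCAAT motif 52 bases before the start. None of the searched letters occurs in the Ndufa4 window. Ndufc2 differed most between strains.
Ndufc2: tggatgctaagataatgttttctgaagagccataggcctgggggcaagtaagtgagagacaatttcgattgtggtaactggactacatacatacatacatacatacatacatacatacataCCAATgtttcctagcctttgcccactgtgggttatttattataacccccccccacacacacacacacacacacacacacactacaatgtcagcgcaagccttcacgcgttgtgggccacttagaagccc
This window (chr7:97399753-97400002, plus strand) holds 1 CCAAT motif, which begins 129 bases before the start.

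Of the 36 listed genes 33 had a promoter in the RefSeq table, with Ndufb9, Ndufs1 and Ndufa2 missing from it. Over the 300-base windows (the 250 bases shown plus 50 after the start), searched on both strands, YY1 motifs were in 8 of 33 promoters (24.2%, against 4.19% of all 27025 promoters). NRF1 motifs were in 5 (15.2% against 4.04%) and ERR motifs in 3 (9.09% against 4.66%). The ETS motif CCGGAAG was in 4 (12.1% against 9.12%), the GC box GGGCGG in 15 (45.5% against 35.9%), the CCAAT motif in 10 (30.3% against 37.9%) and the TATA motif in 4 (12.1% against 14.2%). The 8 promoters with a YY1 motif were those of Ndufa1, Ndufa5, Ndufa7, Ndufa9, Ndufb5, Ndufs4, Ndufs6 and Ndufs7, and those with an NRF1 motif Ndufa6, Ndufa8, Ndufa11, Ndufb6 and Ndufb8. Among the measured genes with a YY1 motif Ndufa7, Ndufa9 and Ndufs4 were lower on high fat, Ndufa1 was higher, and Ndufa5, Ndufb5 and Ndufs7 did not pass the test. A match describes letters and is not a measured binding site.

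The first comparison asked how the diet labels separated the subunits within strains. On high fat, 15 of the 33 genes changed, of which 7 were higher and 8 lower, and 18 did not pass the test (limma with a strain term, adjusted p under 0.05). Over all genes 23.8% were higher, 21.2% lower and 45.0% changed in either direction, and 41.9% of the genes above the median level changed, so the members' share was close to the background. Called members were all accessory subunits or Ndufa4, and 0 of 6 core subunits passed. When each array was centred on its own median, 7 were higher and 5 lower, since Ndufs4, Ndufb9 and Ndufa10 no longer passed.

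Estimates for the 6 core subunits were negative and small, from -0.0527 to -0.0126 units with a median of -0.0271. Accessory subunits ranged from -0.254 to 0.416 with a median of 0.0346, of which 7 rose, 7 fell and 12 did not pass. All genes had a median difference of 0.00526. With the mean of a gene's probe sets, the accessory median was 0.00847, the core median -0.0271 and that of all genes 0.00467. Genes of a class are not replicates of it, so these medians carry no test. Core subunits had a mean level of 13.56 units on chow and 13.52 on high fat, accessory subunits 11.92 and 11.94. The part of level in the contrast between the classes was not tested.

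Ndufv1 binds the flavin that accepts electrons from NADH. Its level ranged from 13.69 to 13.99 over chow arrays (median 13.84) and from 13.54 to 14.05 over high fat arrays (median 13.81), and the 95% interval of its diet difference was -0.0724 to 0.0271. Ndufv2, its iron-sulphur partner, differed by -0.0126 ± 0.0194 (SE, interval -0.0520 to 0.0267). Ndufs1, the largest iron-sulphur subunit of the matrix arm, differed by -0.0487 ± 0.0327 (interval -0.115 to 0.0175) and was higher in 21 and lower in 18 strains. Values for all 3 of these N module cores overlapped broadly between the diets.

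The Q module holds the other 3 core subunits. Ndufs7 carries the last iron-sulphur cluster before ubiquinone, and it ranged from 15.46 to 15.82 on chow (median 15.65) and from 15.39 to 15.94 on high fat (median 15.62), a difference of -0.0295 ± 0.0235 (SE). For Ndufs8, which carries clusters on the same path, the difference was -0.0246 ± 0.0235. Ndufs3, around which assembly of the Q module starts, had the largest core difference, -0.0527 ± 0.0254 (interval -0.104 to -0.00121, adjusted p = 0.0876, limma), and was lower in 24 of 39 strains. It passed under quantile normalization (adjusted p = 0.0417) and with array weights (adjusted p = 0.0498).

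**Figure D1:**
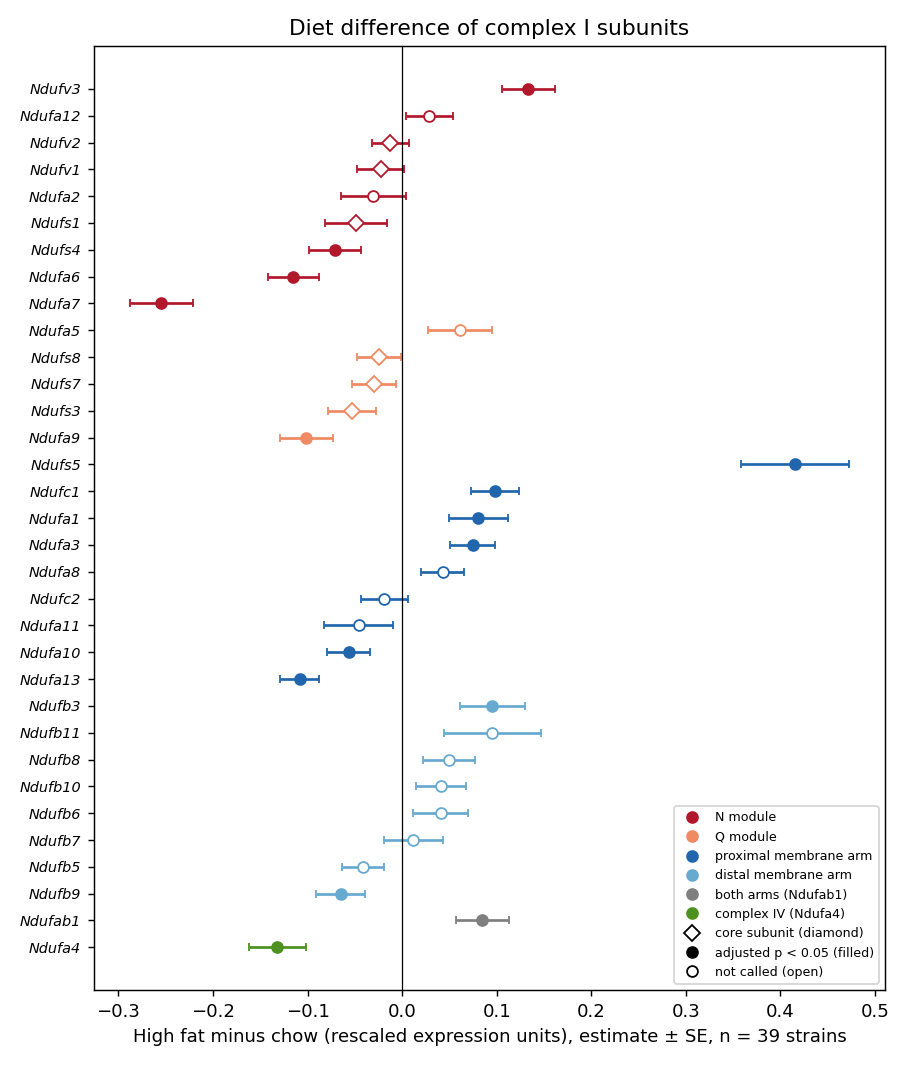
Diet difference (high fat minus chow, in rescaled expression units, horizontal axis) of the 33 measured genes, ordered by module; bars are standard errors of the limma estimate over 39 strains, diamonds are core subunits and filled symbols passed at an adjusted p under 0.05. Ndufs5 at 0.416 and Ndufa7 at -0.254 lie farthest from 0, and all 6 core subunits are open symbols.

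In the N module 3 of 9 measured genes were lower, 1 was higher and 5, among them its 3 cores, did not pass. Over all genes 21.2% were lower and 23.8% higher. Ndufa7, a small accessory subunit of the matrix arm, ran from 10.82 (BXD49) through a median of 11.29 to 11.75 (BXD100) on chow. On high fat it ran from 10.69 (BXD49) through 11.03 to 11.36 (BXD68). The ranges overlapped, but within strains the high fat pool was the lower one in 35 of 39, with a difference of -0.254 ± 0.0333 (SE, adjusted p = 3.97e-08, limma). BXD51 showed the largest fall (-0.588) and BXD68 the largest rise (0.448).

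Ndufa6 belongs to the LYR protein family and docks the acyl carrier protein Ndufab1. It had chow values between 12.29 and 12.90 (median 12.57) and high fat values between 12.21 and 12.73 (median 12.45). The difference was -0.115 ± 0.0271 (SE, adjusted p = 0.000589), and 31 of 39 strains were lower. Ndufs4 is added late in assembly, and its loss is a known cause of Leigh syndrome. Its difference was -0.0709 ± 0.0276 (adjusted p = 0.0332), lower in 27 strains. The call did not hold when the strain term was dropped (adjusted p = 0.0596) or both parents were left out (0.0645). It was also lost with median centring (0.0610) and with marker levels as covariates (0.0704).

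Ndufv3, a small subunit at the NADH-oxidising tip, moved the other way. It ranged from 9.84 (BXD73) to 10.42 (DBA/2J) on chow with a median of 10.20, and from 10.04 to 10.56 (BXD73) on high fat with a median of 10.32. The difference was 0.133 ± 0.0281 (adjusted p = 0.000149), higher in 31 of 39 strains. BXD73 alone differed by 0.722, from the lowest chow value to the highest high fat value. The remaining measured accessory genes of the N module, Ndufa2 (-0.0307 ± 0.0343) and Ndufa12 (0.0285 ± 0.0248), did not pass.

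A second probe set exists for Ndufa12, whose paralogue Ndufaf2 is an assembly factor. That probe set was lower on high fat by -0.186 ± 0.0318 (SE, adjusted p = 1.01e-05), and the average of both gave -0.0787 (adjusted p = 0.00229). The probe sets correlated with r = -0.175 over chow arrays and 0.103 over high fat arrays. No direction is therefore given for Ndufa12 between the diets.

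In the Q module the accessory Ndufa9, a nucleotide-binding subunit at the junction of both arms, was lower, and Ndufa5 did not pass (0.0612 ± 0.0337). Ndufa9 ranged from 13.55 to 14.15 on chow (median 13.83) and from 13.35 (BXD63) to 14.22 (BXD48) on high fat (median 13.74). Its difference was -0.101 ± 0.0279 (adjusted p = 0.00286), lower in 29 strains. BXD63 and BXD48, which hold its lowest and highest high fat values, also had its extreme differences, -0.405 and 0.259.

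In the proximal membrane arm 4 of 9 members were higher and 2 lower (23.8% and 21.2% over all genes). Ndufs5, a small subunit on the face towards the intermembrane space, had the largest difference of all members. It ranged from 7.28 (BXD48) through 7.93 to 8.42 (DBA/2J) on chow, and from 7.89 (DBA/2J) through 8.40 to 8.69 (BXD68) on high fat. The difference was 0.416 ± 0.0571 (SE, adjusted p = 1.06e-07), and 33 of 39 strains were higher. DBA/2J went from the highest chow value to the lowest high fat value (-0.531), and BXD48 rose by 1.15. The 2 arrays of a strain were not alike for this gene (intraclass correlation -0.345), and its mean of 8.12 lay below the median gene level of 8.18. Another probe set carries Ndufs5 together with its pseudogene Ndufs5-ps, so signal from the pseudogene in the probe set used here cannot be told apart from the gene's own.

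Smaller rises in this arm were those of Ndufc1 (0.0984 ± 0.0256, adjusted p = 0.00164, higher in 31 strains), Ndufa1 (0.0807 ± 0.0314, adjusted p = 0.0332) and Ndufa3 (0.0747 ± 0.0240, adjusted p = 0.0101). Ndufc1 and Ndufa3 are small membrane subunits, and Ndufa1 is one of the X-linked subunits of the complex. Ndufa1 missed the threshold under quantile normalization (adjusted p = 0.0689), and Ndufa3 with marker levels as covariates (0.256). Ndufa13, also known as GRIM-19, was lower. It ranged from 13.39 (DBA/2J) to 13.77 (BXD70) on chow with a median of 13.58, and from 13.25 (DBA/2J) to 13.68 on high fat with a median of 13.46. With 33 of 39 strains lower, the difference was -0.108 ± 0.0209 (adjusted p = 4.34e-05). Ndufa10 (-0.0565 ± 0.0228, adjusted p = 0.0396) was lower too, in 27 strains, a call that 5 alternatives did not keep. Ndufa8 (0.0430 ± 0.0226), Ndufa11 (-0.0458 ± 0.0367) and Ndufc2 did not pass.

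The distal membrane arm had 1 rise and 1 fall among 8 measured genes (23.8% and 21.2% over all genes). Ndufb3 rose by 0.0955 ± 0.0343 (adjusted p = 0.0209, higher in 30 strains), although BXD43 fell by 0.548. With marker levels as covariates its difference was 0.0558 (adjusted p = 0.372). Ndufb9, like Ndufa6 a LYR protein, differed by -0.0651 ± 0.0256 (adjusted p = 0.0350) and missed the threshold without the parents (0.0523). Ndufb11, which is X-linked, had a difference of the same size as Ndufb3 (0.0954) with a larger error (0.0511), and did not pass. Ndufb5, Ndufb6, Ndufb7, Ndufb8 and Ndufb10 lay between -0.0409 and 0.0495 without passing. Ndufab1, an acyl carrier protein found in both arms, rose by 0.0849 ± 0.0279 (adjusted p = 0.0116, higher in 29 strains).

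Ndufa4 was lower on high fat. It ranged from 13.32 (BXD49) to 13.88 (BXD100) on chow with a median of 13.55, and from 13.14 (BXD84) to 13.87 (BXD73) on high fat with a median of 13.41. The difference was -0.132 ± 0.0298 (SE, adjusted p = 0.000348), with 31 of 39 strains lower. Among 12 measured genes of complex IV 2 were higher and 2 lower (23.8% and 21.2% over all genes), with a median of -0.0272. Of the members, 2 (Ndufs5 and Ndufa7) differed by more than the 0.247 units that held 95% of the ERCC probe sets. The part of such differences between control probe sets in the members' calls was not tested. The levels are unlike, with a mean of 5.96 units for the ERCC probe sets and 8.12 for Ndufs5, the lowest member.

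**Figure D2:**
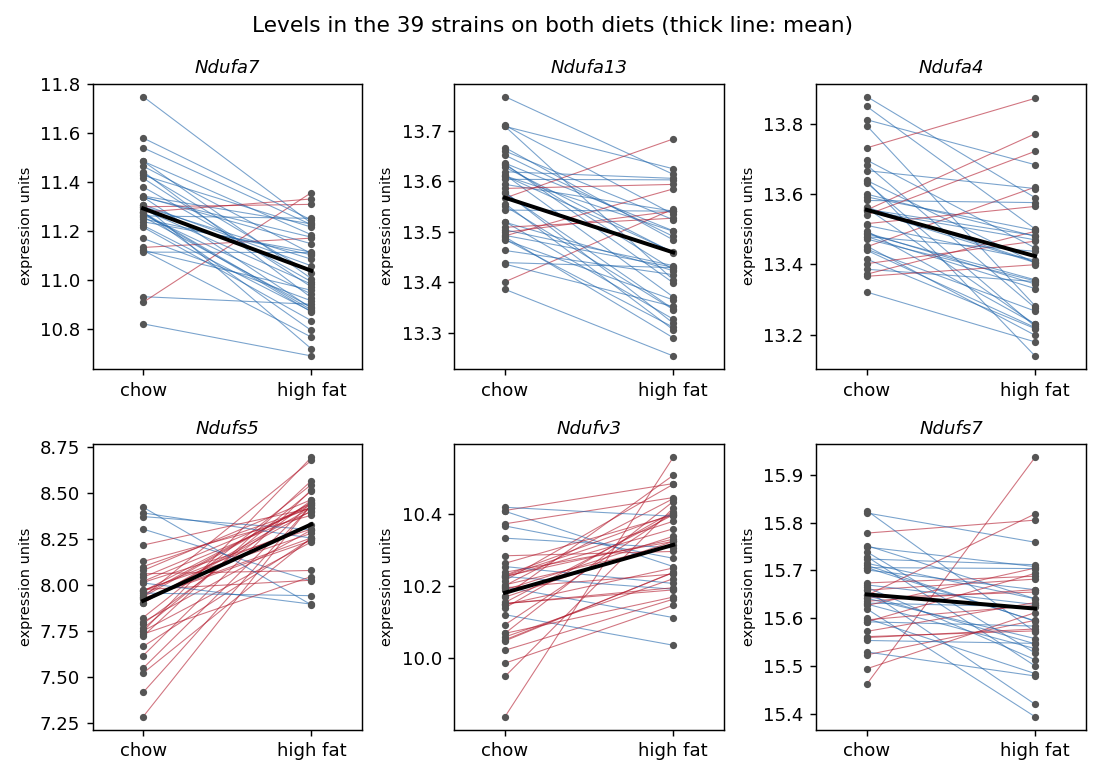
Levels in rescaled expression units (vertical axis, own range in each panel) of 6 members on chow and high fat; each thin line is 1 of 39 strains, blue where high fat is lower and red where it is higher, and the thick line joins the means. Ndufa7, Ndufa13 and Ndufa4 fell in 35, 33 and 31 strains, Ndufs5 and Ndufv3 rose in 33 and 31, and the core subunit Ndufs7 was lower in 24 and higher in 15.

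Genes that assemble the complex moved in both directions. Of 18 measured assembly genes 8 were higher, 4 lower and 6 did not pass, where 23.8% of all genes were higher and 21.2% lower. The list's median size of difference was 0.104, against 0.0565 for the members and 0.0841 for all genes. Tmem186, a part of the complex that assembles the membrane arm, rose by 0.288 ± 0.0393 (SE, adjusted p = 9.57e-08, 33 of 39 strains), while Acad9 of the same assembly complex differed by -0.158 ± 0.0269 (adjusted p = 6.43e-06). Nubpl, which delivers iron-sulphur clusters to complex I, differed by -0.256 ± 0.0397 (adjusted p = 1.15e-06, lower in 34 strains). Ndufaf5, which hydroxylates Ndufs7, rose by 0.241 ± 0.0445 (adjusted p = 2.31e-05). The list's median difference was 0.00654.

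Of 12 regulators of mitochondrial gene expression 5 were lower and 0 higher. Over all genes 21.2% were lower and 23.8% higher, which is the background for these and the marker counts below. The nuclear receptors Esrrg (-0.150 ± 0.0257, adjusted p = 7.02e-06) and Esrrb (-0.185 ± 0.0409, adjusted p = 0.000263) bind the ERR motif. Nrf1, which binds the NRF1 motif, differed by -0.105 ± 0.0326 (adjusted p = 0.00755), and Tfb1m, a methyltransferase of mitochondrial ribosomal RNA, by -0.0802 ± 0.0313 (adjusted p = 0.0336). The coactivator Ppargc1a was the other called gene (-0.0803). Cardiomyocyte markers were lower in 5 of 11 cases and higher in 0, with a median of -0.0366. Macrophage markers were higher in 4 of 7 cases (median 0.121) and fibroblast markers in 3 of 7 (median 0.0601). Of 7 endothelial markers 2 were higher and 1 lower. Of 7 adipocyte markers 2 were lower, Adipoq (-0.852, lower in 39 of 39 strains) and Adig (-0.317). The part of these markers in the members' differences was not tested beyond a covariate fit, which used atrial, adipocyte and brown fat markers. In that fit 5 members were higher and 6 lower, and 32.3% of all genes were called.

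The mean of all members moved by a different amount in each strain. The mean of the 33 members changed by between -0.174 (BXD63, from 12.286 to 12.112) and 0.205 units (BXD48, from 12.247 to 12.451), and 16 strains were higher on high fat. Across strains this change correlated with that of the ERCC mean (r = 0.538), the cardiomyocyte marker mean (0.485), the atrial mean (-0.423) and the fibroblast mean (-0.342), all from the same pairs of arrays, and their part in it was not tested. BXD48 held the highest high fat value of 10 members and BXD68 of 7, while BXD49 held the lowest of 5 and BXD63 of 4. On chow BXD100 held the highest value of 9 members and BXD62 the lowest of 6. With BXD48 and BXD100 left out, again 7 members were higher and 8 lower. Each such value rests on 1 array.

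The next comparison asked which subunits kept a strain's level across the diets. Of the 33 members 5 differed among strains (limma F test, adjusted p under 0.05), all accessory subunits, against 14.8% of all genes and 23.5% of the genes above the median level. For the 6 core subunits intraclass correlations of a strain's 2 arrays lay between 0.0634 and 0.392, and 0 passed. The members' median intraclass correlation was 0.248, against 0.155 for all genes. With a trended and robust variance model 10 members passed, where 17.2% of genes did, and 9 with the test restricted to genes above the median level, where 33.7% of genes passed.

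Ndufc2, a subunit of the proximal membrane arm, differed most. It ranged from 14.04 (BXD84) through 14.56 to 14.81 (BXD71) on chow and from 14.09 (BXD84) through 14.46 to 14.94 (BXD48) on high fat, with an intraclass correlation of 0.788 (adjusted p = 1.62e-07). Strain means left a gap of 0.139 units between 14.36 and 14.50, with 16 strains below it and 23 above. C57BL/6J lay above the gap (14.67 on chow and 14.51 on high fat) and DBA/2J below it (14.19 and 14.18). The diet difference was -0.0186 ± 0.0250, against an SD among strains of 0.219 on chow and 0.218 on high fat.

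Ndufb10, a subunit on the intermembrane space side of the distal arm, ranged from 9.77 (BXD50) to 10.49 (BXD95) on chow and from 9.77 (BXD50) to 10.54 (BXD90) on high fat, with medians of 10.16 and 10.19. Its intraclass correlation was 0.653 (adjusted p = 0.000182). BXD50 was lowest on both diets, 0.122 units in strain mean from the next strain. Ndufa12 (0.627, adjusted p = 0.000771) ranged from 11.54 (BXD95) to 12.48 (BXD100) on chow and from 11.81 (DBA/2J) to 12.55 (BXD73) on high fat. Its second probe set had an intraclass correlation of 0.403 (adjusted p = 0.0603).

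Ndufa9 (intraclass correlation 0.529, adjusted p = 0.00618) had strain means between 13.50 (BXD85) and 14.09 (BXD48), and it was also called between the diets. Ndufa2, a small N module subunit with a thioredoxin-like fold, had strain means between 11.32 (BXD50) and 12.13 (BXD70) and an intraclass correlation of 0.472 (adjusted p = 0.0102). Ndufa8, whose main probe set did not pass (0.194), had a second probe set with an intraclass correlation of 0.761 (adjusted p = 7.58e-07). Its probe sets correlated with r = 0.249 on chow and 0.329 on high fat.

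**Figure D3:**
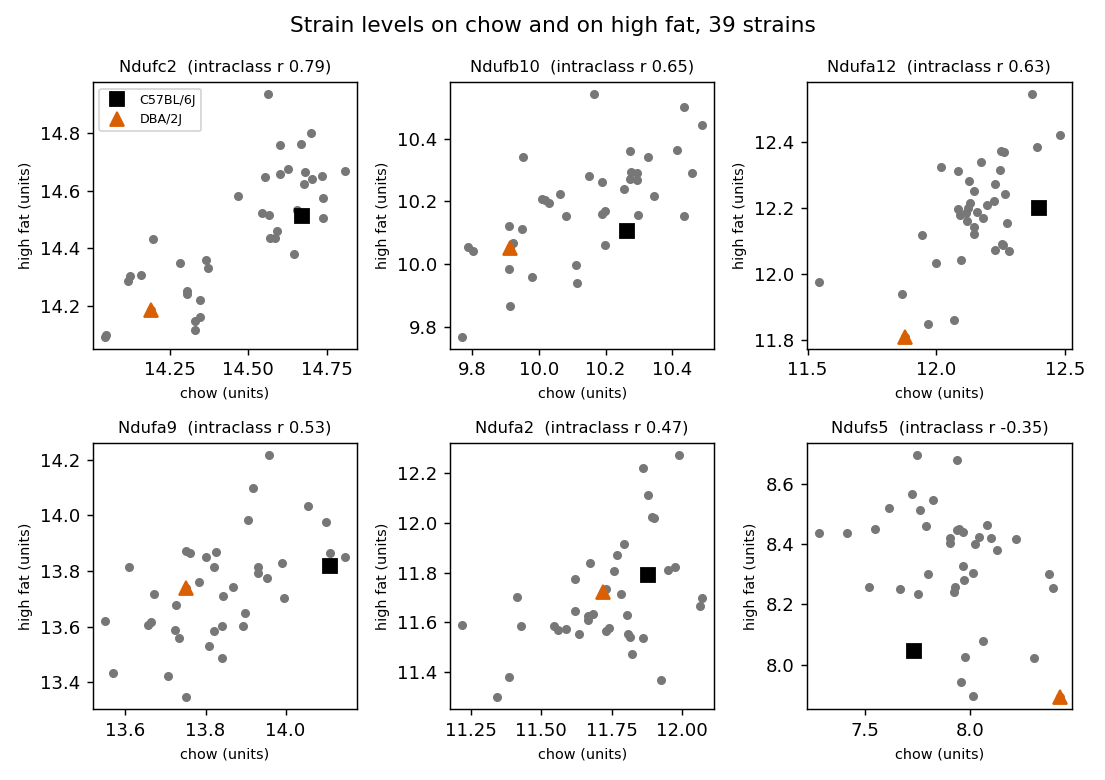
Level on high fat (vertical axis) against level on chow (horizontal axis), in rescaled expression units, for 39 strains; the square marks C57BL/6J and the triangle DBA/2J. Ndufc2 (intraclass correlation 0.788) splits around a gap with the parents on opposite sides, and Ndufs5 (-0.345) shows no agreement between a strain's arrays.

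Between the parents 2 of 33 members passed, against 2.36% of all genes. DBA/2J was lower for Ndufa12, with 11.88 on chow and 11.81 on high fat against 12.40 and 12.20 in C57BL/6J (-0.455 ± 0.110 SE, adjusted p = 0.0113). Ndufc2 was lower by -0.405 ± 0.110 (adjusted p = 0.0344). Each parent has 2 arrays, 1 per diet, so the error of the parents' difference is taken from the fit of all strains together. It reflects the variation left after the strain and diet terms, that is, how diet differences vary between strains. The spread of levels among strains does not enter it. Ndufc2 missed the threshold with median centring (adjusted p = 0.0602), and Ndufa12 with the mean of its probe sets (-0.284, adjusted p = 0.111). Ndufa13, lowest in DBA/2J on both diets, differed by -0.237 ± 0.0924 without passing (adjusted p = 0.213).

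Genes whose strain means were most like those of the 5 strain-called members were looked up after these members' values had been seen. For Ndufc2 all 5 were on its own chromosome, 7. Thrsp, a regulator of lipogenesis and the next measured gene, correlated with r = 0.786 over 39 strains and differed by -0.859 units in DBA/2J against C57BL/6J (adjusted p = 0.000269). Aqp11 (0.795) and Myo7a (0.863) lay 7 and 9 measured genes away, and Trim12a (0.845) and Trim12c (-0.859) 189 and 191 away. Of the closer neighbours Nars2 correlated with -0.782 and Alg8 with 0.583, while Kctd14 and Usp35 did so with -0.158 and -0.0250. The median size of r with Ndufc2 over all genes was 0.127.

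All 5 genes most like Ndufb10 were on chromosome 17, led by Gfer (0.704), a sulfhydryl oxidase of protein import into the intermembrane space, 5 measured genes away. Hebp1 (-0.718) and Klra9 (0.715) led for Ndufa9 and shared chromosome 6 with it. For Ndufa12 on chromosome 10 all 5, led by Ssh1 (-0.714) and Abhd3 (-0.705), were on other chromosomes. Ndufa2 was most like Pkd2l2 (0.719), 49 measured genes away on its chromosome. These correlations describe values from shared arrays, and genotypes were not analysed here.

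The last comparison asked whether subunits varied together among strains. Over 528 pairs of members the median Pearson r was 0.187 across the 39 chow arrays, with 82.2% of pairs positive, and 0.302 across the 39 high fat arrays, with 93.6% positive. Pairs of all genes had medians of 0.008 and 0.005, and pairs of genes above the median level 0.023 and 0.018. The differences between the diets correlated with a median r of 0.243. When one member's chow array was paired with the other's high fat array of the same strain, the median was 0.0866, with 76.1% of pairs positive (0.002 for all genes and 0.009 above the median level). Members on the same array share its RNA pool, labelling and rescaling, while the arrays of different diets come from different pools of the strain. Whether they share a preparation or scan batch was not tested.

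Core pairs had medians of 0.274 on chow and 0.352 on high fat, accessory pairs 0.157 and 0.287, and mixed pairs 0.192 and 0.317. Between members and the subunits of complexes II to V the medians were 0.183 and 0.311, close to those within complex I. Members and cardiomyocyte markers gave 0.151 and 0.251, and members and assembly genes 0.0837 and 0.126. The members' residuals, after a linear fit of each on the ERCC mean within a diet, gave pair medians of 0.141 (chow) and 0.252 (high fat). Whether the high fat median exceeds the chow median beyond the spread among strains was not tested. Under quantile normalization the medians over pairs of members were 0.135 on chow and 0.205 on high fat.

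By the mean of both diets, Ndufa4 had the highest median r with the other members (0.383 on chow and 0.423 on high fat), followed by Ndufb9 (0.357 and 0.374) and Ndufv2 (0.301 and 0.429). On high fat alone Ndufa8 led (0.466). Ndufa4 paired most closely with Ndufa6 (0.702 and 0.801), Ndufa7 (0.668 and 0.766) and Ndufa3 (0.722 and 0.707). Across the diets' arrays these pairs had r of 0.235, 0.331 and 0.320. Ndufa11 with Ndufb9 gave 0.700 and 0.751, and the core Ndufs1 with Ndufs4, both of the N module, 0.807 and 0.560. The core Ndufs7 varied most closely with Ndufa10 (0.618 and 0.737).

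Lowest by the same mean stood Ndufb11 (median r 0.0781 on chow and 0.0407 on high fat), Ndufs5 (0.0213 and 0.158) and Ndufab1 (0.00541 and 0.187). Their mean levels were 8.73, 8.12 and 9.73 units, and the part of a low level in their low r was not tested. On chow alone Ndufv3 was lowest (-0.0145), and on high fat Ndufb3 (0.128) lay below Ndufs5 and Ndufab1. Ndufab1 and Ndufs5, both higher on high fat, correlated negatively with each other (-0.325 and -0.148). Ndufs1 and Ndufv3 did so as well (-0.339 and -0.127). Across the diets' arrays these pairs had r of 0.109 and 0.034.

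**Figure D4:**
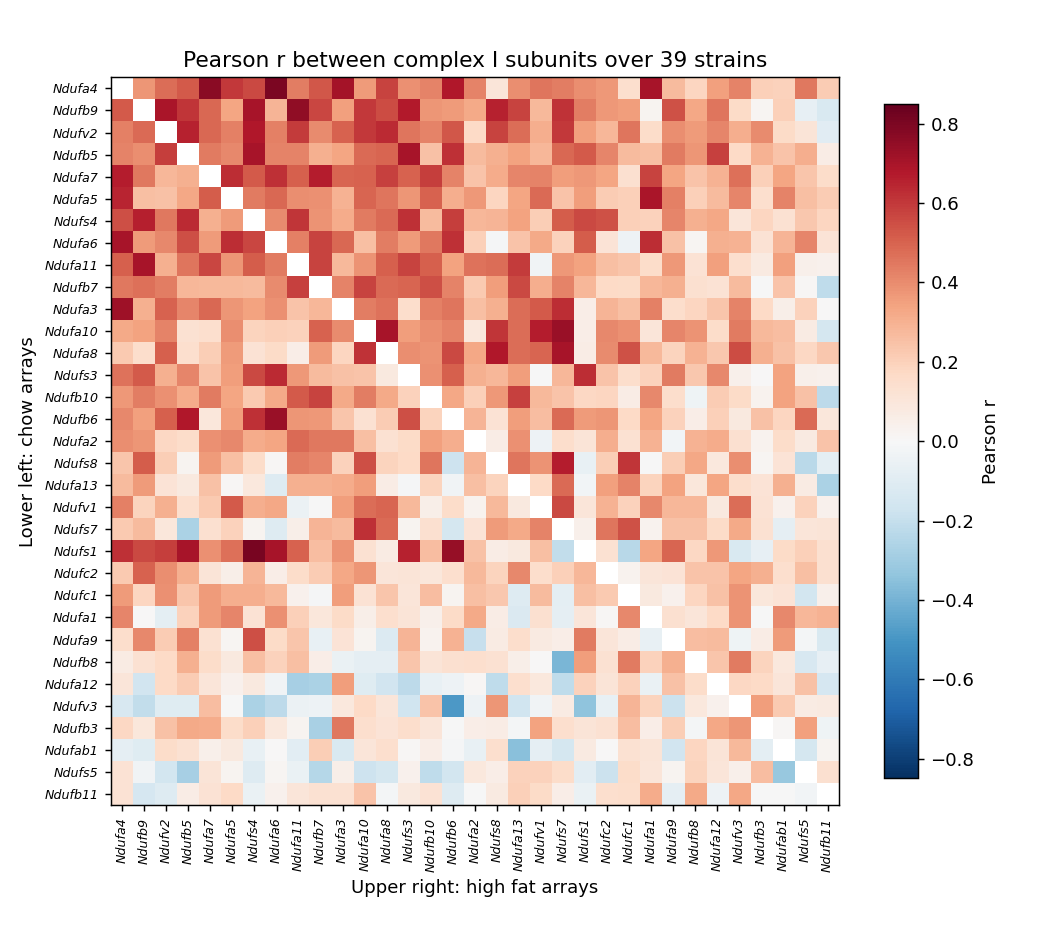
Pearson r between every pair of the 33 measured genes over 39 strains, as colour from blue (negative) through white to red (positive), with chow arrays in the lower left and high fat arrays in the upper right; genes are ordered by their median r. The upper left block from Ndufa4 is red on both diets, and the last rows, with Ndufab1, Ndufs5 and Ndufb11, are pale.

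The members' mean followed the other respiratory complexes from array to array. It correlated with the mean of 8 complex III genes with r = 0.739 on chow and 0.922 on high fat, with complex IV 0.775 and 0.830, with complex V 0.757 and 0.837, and with complex II 0.681 and 0.735. The assembly genes gave 0.364 and 0.452, and the regulators 0.302 and 0.273. Ranked by the lower of the r values on the 2 diets, the gene outside the list most like the members' mean was Sdhd, a membrane anchor of complex II (0.812 and 0.781), then Atp5pb (0.751 and 0.779), a stator subunit of ATP synthase, and Timm8b (0.776 and 0.737), a chaperone of the intermembrane space. On high fat alone Idh3b (0.816) and Cox4i1 (0.801) lay above Sdhd.

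Other measures moved with the mean as well. It correlated with the cardiomyocyte marker mean (0.491 on chow and 0.587 on high fat) and negatively with fibroblast (-0.255 and -0.583), atrial (-0.206 and -0.564) and macrophage markers (-0.361 and -0.337). The mean of the ERCC probe sets, which ranged from 5.90 to 6.05 units on chow and from 5.89 to 6.06 on high fat, correlated with it at 0.555 and 0.541. Values of 23 background probe sets did so at 0.484 and 0.397. All these means come from the same rescaled arrays, and their part in the members' co-variation was not tested beyond residuals. Those after the ERCC mean are given above, and those after the atrial, adipocyte and brown fat marker means gave medians of 0.183 (chow) and 0.240 (high fat).

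**Figure D5:**
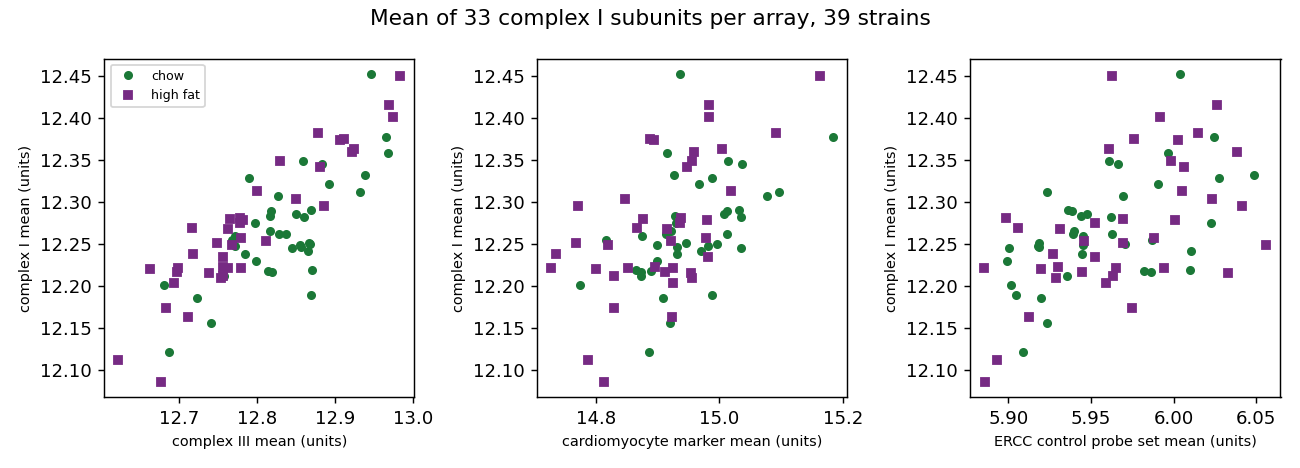
Mean of the 33 measured genes per array (vertical axis) against the mean of complex III genes, cardiomyocyte markers and ERCC probe sets (horizontal axes), all in rescaled expression units; circles are 39 chow arrays and squares 39 high fat arrays of the same strains. The points follow complex III most closely (r = 0.739 on chow and 0.922 on high fat) and scatter more against the ERCC mean (0.555 and 0.541).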

How the data were processed

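Each probe set has a deposited score on a log-like scale, made by the authors with Affymetrix Expression Console per the submitters' processing notes. The sources used here name no version, summarisation step, base or slope. Every array's values average 8 with an SD of 2 (41345 probe sets), which hides any change common to most genes. Names came from the platform's gene table (23521 with 1 symbol, 1814 with several, 16010 unnamed), giving 22180 genes, with no filter on level.

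Diet, strain and parent differences were tested with limma 3.58.1 in R 4.3.3 (lmFit, eBayes) on the 78 arrays of 39 strains, with terms for strain and diet, and adjusted over all genes by Benjamini and Hochberg's method. Second probe sets and ERCC probe sets were tested in a separate fit of all 41345 probe sets, with adjustment over those. The plan treated the values as testable on their own scale. The pairing comes from the strain labels: a strain's arrays deviated together with a median r of 0.248, against -0.00927 for other strains, and 37 of 39 had an r over 0.1. For 31 of 39 strains the chow array was most like its own strain's high fat array, and for the others most like another strain's. Intervals of 95% use Student's distribution with 38 degrees of freedom. Scripts were tested on simulated data. Members and lists were chosen with earlier results of these data known, so no list was tested as a set. Genes were named by a rule that takes all core subunits, up to 6 called members with the largest rise and 6 with the largest fall, the called members among strains and between parents, the 3 with the highest and 3 with the lowest median correlation, and up to 4 called assembly and regulator genes. Other members are given with shorter values. Alternatives covered the strain term, scaling, variance model, array weights, dim genes, probe sets, strains and marker covariates. Leaving out BXD48 and BXD100, pairing arrays across diets, ERCC residuals and second probe sets were chosen after the data were seen.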

Additional observations from a re-analysis of the deposited data

How the results depend on the processing

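Across 11 alternatives between 11 and 16 of the 33 members were called between the diets, against 15 as reported, with 5 to 9 higher and 5 to 9 lower, while the share of all genes called ranged from 32.3% (marker covariates) to 46.2% (array weights). The number lower fell from 8 to 5 with median centring and to 5 with the parents left out. Core calls went from 0 to 1 with quantile normalization and to 1 with array weights (Ndufs3 in both). Calls among strains went from 5 to 10 with a trended and robust variance model and to 9 with genes above the median level, where Ndufs5 has no value. Calls between the parents went from 2 to 1 with median centring and to 1 with the mean of probe sets. When arrays of different diets were paired, the median correlation was 0.0866, against 0.302 within high fat and 0.187 within chow. For Ndufa12 the diet difference of 0.0285 reversed to -0.0787 with the mean of probe sets and to -0.186 with its second probe set. The cause was not tested in these cases. Of 277 values for single members under alternatives, 257 kept their direction and side of the threshold or were called neither way, 16 lost the call and 2 gained it.

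Without the replicate block (no strain term, all 81 arrays) 11 members were called, 6 higher and 5 lower, and 40.9% of all genes. Ndufa1, Ndufa10, Ndufb9 and Ndufs4 no longer passed, and no other named member changed its call.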
